A study of Mus musculus with 30 samples.

Results

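Glutathione S-transferases (GSTs) are enzymes that join glutathione to reactive, electrophilic compounds so that these can be exported from the cell. They fall into classes that differ in place and substrate, and the promoters of several are known targets of Nrf2, the transcription factor of the oxidative stress response, which binds antioxidant response elements. Sp1 and Sp3, the factors mutated in the cells examined here, are ubiquitous zinc finger proteins that recognise the GC box. Of the 14685 genes in the deposited table, 8 GST genes were examined in all 15 groups: the mu class genes Gstm1, Gstm2 and Gstm5, the alpha class gene Gsta4, the pi class gene Gstp1, the theta class gene Gstt1, the omega class gene Gsto1 and the kappa class gene Gstk1. They were chosen by name, because Gstm5 was low in the Sp3KO columns, and 8 of 8 were present. For this reason the values of Gstm5 in Sp3KO cells are given as a description, with no test.

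RNA was measured in 30 samples of the mouse embryonic stem cell (ESC) line E14, with 2 samples for each of 5 populations in each of 3 genotypes. The populations were undifferentiated ESC, Flk1+ mesoderm cells taken from embryoid bodies on magnetic columns, and cells sorted from the blast culture that Flk1+ cells were seeded into: KIT+ CD41- Tie2+ cells (HE1, hemogenic endothelium), KIT+ CD41+ Tie2+ cells (HE2) and KIT+ CD41+ Tie2- cells (Progenitor). The genotypes were WT, Sp1_deltaDBD, which carry Sp1 without its DNA-binding domain, and Sp3KO, a knockout of Sp3. Each genotype stands for 1 ESC line here, so that a difference between genotypes cannot be told apart from a difference between lines. The study's methods call the 2 samples of a group biological replicates, and the labels do not say whether they came from separate cultures, so the p-values measure only the spread between these samples, which may be technical. In bulk samples, fewer cells of a type and less RNA per cell cannot be told apart.

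Values are FPKM, that is fragments scaled by transcript length and by the fragments of the sample, as quantile normalised by the authors. Fold changes are differences between mean log2(FPKM + 0.1), and a gene was called where the limma adjusted p was below 0.05. Sp3 had between 3.38 and 7.79 FPKM in the Sp3KO samples and between 25.9 and 58.1 FPKM in the WT samples. Sp1 kept between 14.8 and 40.5 FPKM in Sp1_deltaDBD samples, against 24.9 to 52.4 FPKM in WT. The summed FPKM of 5 ESC markers was 1086 to 1331 in ESC and at most 97.6 elsewhere, and that of 5 endothelial markers was highest in HE1 (965 to 1482). Sums of markers of other cell types differed between the samples of some groups. In WT HE1 the sum of 6 smooth and cardiac muscle markers was 1678 in replicate 1 and 356 in replicate 2. That of the 7 measured of 10 fibroblast and mesenchyme markers was 298 and 42.0. The muscle sum was 984 and 248 in Sp1_deltaDBD HE1, 195 and 124 in Sp3KO HE1, and 365 and 36.4 in Sp1_deltaDBD HE2.

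Promoter sequences are shown for the 4 genes whose values in the mutants are described at most length, since Sp1 and Sp3 bind GC boxes. RefSeq promoters were found for 7 of the 8 genes, all but Gsta4. The sequences are the 250 bases before the first listed start on GRCm38.p6, written 5′ to 3′ on the strand of the gene, with each GC box (GGGCGG on either strand) in capitals. They lie at chr3:107895604-107895853 on the + strand for Gstm5, at chr3:107986421-107986670 on the - strand for Gstm2, at chr19:47854723-47854972 on the + strand for Gsto1 and at chr6:42245685-42245934 on the + strand for Gstk1.
Gstm5: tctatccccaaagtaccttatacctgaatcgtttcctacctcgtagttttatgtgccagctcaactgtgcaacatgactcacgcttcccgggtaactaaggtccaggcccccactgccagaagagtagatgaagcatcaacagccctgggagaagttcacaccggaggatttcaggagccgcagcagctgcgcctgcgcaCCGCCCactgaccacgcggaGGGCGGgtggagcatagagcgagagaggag
Gstm2: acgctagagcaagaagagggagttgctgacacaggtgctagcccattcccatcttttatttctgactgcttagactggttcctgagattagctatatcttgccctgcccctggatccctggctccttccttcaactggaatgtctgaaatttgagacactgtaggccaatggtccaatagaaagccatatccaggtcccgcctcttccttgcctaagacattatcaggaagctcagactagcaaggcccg
Gsto1: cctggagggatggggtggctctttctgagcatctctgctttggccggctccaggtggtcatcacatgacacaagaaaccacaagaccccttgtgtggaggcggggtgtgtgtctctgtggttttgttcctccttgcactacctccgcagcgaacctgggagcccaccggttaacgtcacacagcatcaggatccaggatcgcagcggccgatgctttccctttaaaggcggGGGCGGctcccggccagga
Gstk1: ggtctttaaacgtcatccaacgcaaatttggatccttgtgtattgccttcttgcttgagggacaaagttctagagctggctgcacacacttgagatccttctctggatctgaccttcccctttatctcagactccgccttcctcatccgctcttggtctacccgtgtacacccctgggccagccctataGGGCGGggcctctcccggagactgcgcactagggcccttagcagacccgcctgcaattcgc
The Gstm5 sequence held 2 GC boxes, which began 50 bases (- strand) and 30 bases (+ strand) before the start. Between them, 42 bases before the start, lay the only match among the 7 genes to the antioxidant response element, searched on both strands as TGACNNNGC. This match did not overlap either GC box. Gstp1, Gsto1 and Gstk1 each held 1 GC box, 60, 19 and 61 bases before the start, while Gstm1, Gstm2 and Gstt1 held none. Of the promoters of 11029 genes tested, 58.2% held at least 1 GC box, 32.4% held 2 or more and 12.1% held a match to the antioxidant response element, so a GC box is a common feature of these genes. A match of letters does not show that a factor binds there.

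In WT cells the 8 genes had different levels and courses, as the plot of WT levels over the populations shows. Per length, Gsta4 had the highest FPKM of the 8 genes in WT ESC, HE1, HE2 and Progenitor cells, and Gstp1 in Flk1+ cells. Gsta4, an enzyme known for acting on aldehydes from lipid peroxidation, had 256 and 338 FPKM in ESC, 24.6 and 24.1 in Flk1+ cells, and 126 and 150 in HE1. In the CD41+ populations it had 262 and 187 FPKM (HE2) and 87.6 and 66.4 (Progenitor). Its ESC and HE2 samples overlapped, and every other pair of neighbours in the order ESC, HE2, HE1, Progenitor, Flk1 was separate. Gstm2 followed a similar course up to HE1, with 12.4 and 9.43 FPKM in ESC, 0.658 and 0.551 in Flk1+ cells, and 8.92 and 11.0 in HE1. It then had 12.3 and 14.5 FPKM in HE2 and 13.7 and 14.9 in Progenitor cells, so that the 4 populations other than Flk1+ overlapped with their neighbours in the order of levels. Gstm1 had 19.5 and 15 FPKM in ESC and between 3.36 and 8.22 FPKM in the later WT samples, so ESC stood apart. Gstm5 was highest in Flk1+ cells, at 13.5 and 13.6 FPKM, where Gstm2 and Gsta4 were lowest. Gstp1, Gsto1 and Gstk1 each had their highest mean in HE2, and Gstk1 had 11.9 and 13.1 FPKM in HE1 and 14.7 and 13.0 in HE2 against 2.32 to 6.19 in the other WT populations. Gstt1 had at most 3.66 FPKM in a WT sample and the lowest mean of the 8 genes in WT HE1, HE2 and Progenitor cells, while Gstk1 had the lowest in ESC (3.11 FPKM) and Gstm2 in Flk1+ cells.

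**Figure D1:**
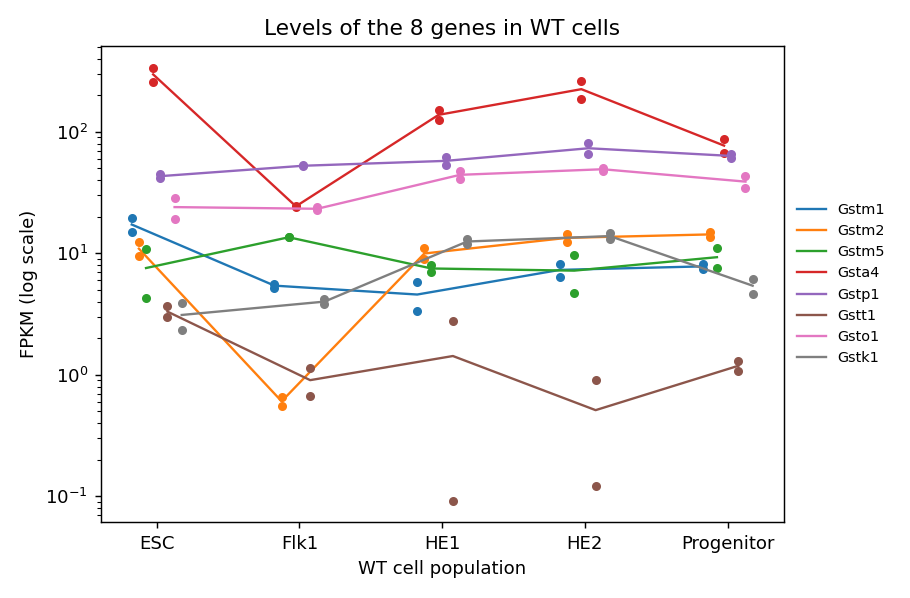
FPKM on a log scale of the 8 GST genes in the 5 WT populations. Points are the 2 samples and lines join their means. Gsta4, Gstm2 and Gstm1 drop from ESC to Flk1+ cells, whereas Gstm5 is highest in Flk1+ cells (13.5 and 13.6 FPKM).

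Between neighbouring WT populations, 10 of 32 values were called. From ESC to Flk1+ cells, where 52.2% of all genes tested were called and 24.7% were called lower, 3 of the 8 genes fell: Gsta4 by 3.59 (SE 0.197, adjusted p = 2.44e-11), Gstm2 by 3.96 (SE 0.279, adjusted p = 8.25e-10) and Gstm1 by 1.64 (SE 0.240, adjusted p = 1.13e-05) on the log2 scale. From Flk1+ cells to HE1 (53.0% of all genes called, 23.5% higher), 4 rose: Gstm2 by 3.83 (adjusted p = 2.19e-09), Gsta4 by 2.49 (6.21e-09), Gstk1 by 1.62 (0.00791) and Gsto1 by 0.92 (0.00376). From HE1 to HE2 (21.9% called, 11.7% higher), Gsta4 rose by 0.69 (adjusted p = 0.0176) and Gstm1 by 0.70 (0.0428). From HE2 to Progenitor cells (13.2% called, 7.78% lower), Gsta4 fell by 1.54 (adjusted p = 2.39e-05). Gstk1 had a log2 difference of -1.35 at this last step (adjusted p = 0.0706), and it passed with a pseudocount of 1 (-1.22, adjusted p = 0.0109). Both HE1 to HE2 calls were lost without WT HE1 replicate 1, the sample with the high muscle sum, with an adjusted p of 0.144 for Gsta4 and 0.486 for Gstm1. They were also lost without WT HE2 replicate 1 for Gsta4 (adjusted p = 0.210) and without either WT HE2 sample for Gstm1 (0.0516 and 0.251) or with the GC and length correction (0.0515), and the Gstm1 call did not pass in 13 of the 30 fits that left out a sample.

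Gstm5 encodes a mu class GST and lies at chr3:107895821-107898686 on the + strand of GRCm38, at one end of the mu class cluster. In ESC it had 10.8 and 4.32 FPKM in WT and 0.950 and 1.99 in Sp3KO samples. In Flk1+ cells it had 13.5 and 13.6 FPKM in WT and 2.92 and 5.51 in Sp3KO samples. In HE1 the values were 7.94 and 7.05 FPKM in WT and 1.02 and 1.16 in Sp3KO samples. Every Sp3KO sample of these populations was below both WT samples of the same population. In HE2 the WT samples had 9.72 and 4.67 FPKM and the Sp3KO samples 0.00647 and 1.56, and in Progenitor cells the values were 11.0 and 7.57 against 0.902 and 2.12. The value of 0.00647 FPKM was the lowest in that sample and was shared by 1239 genes. The ratio of the Sp3KO to the WT mean (FPKM + 0.1) was 0.204 in ESC, 0.315 in Flk1+ cells, 0.156 in HE1, 0.121 in HE2 and then 0.172 in the Progenitor cells. The highest mean was in Flk1+ cells in each of the 3 genotypes, followed by Progenitor cells. The Flk1+ samples were separate from the others in WT and Sp3KO cells and overlapped with Progenitor samples in Sp1_deltaDBD cells, and the other populations overlapped with their neighbours in the order of levels.

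These values chose the 8 genes and carry no test. Groups that do not overlap were common, with 61.0%, 68.0%, 61.4%, 59.0% and 56.2% of all genes in the order of differentiation. On the log2 scale the differences were -2.23, -1.73, -2.68, -4.02 and -2.63 in the order of differentiation. The HE2 value rests on Sp3KO replicate 1: it was -2.04 without that sample and -2.28 with a pseudocount of 1. Leaving out 1 sample moved the value between -2.88 and -1.58 in ESC, -2.18 and -1.29 in Flk1+ cells, -2.76 and -2.59 in HE1, and -3.20 and -2.05 in Progenitor cells. The annotation places an antisense gene, 4933431E20Rik (chr3:107888850-107896213, - strand), across 393 bases of Gstm5, and 7.47% of the 75-base windows of the Gstm5 transcripts were shared with it. The kit marks strand, but whether strand was used in the quantification is not given in the sources used here, so reads of this stretch may belong to either gene.

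**Figure D2:**
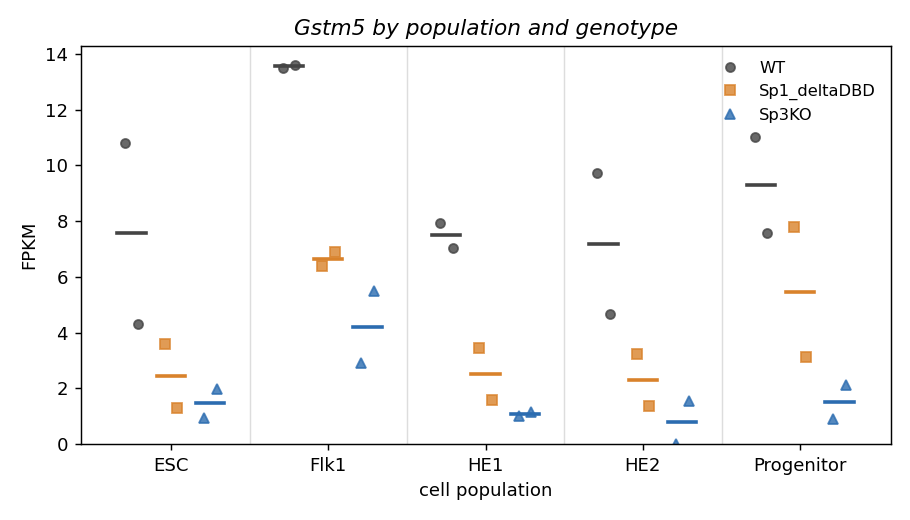
FPKM of Gstm5 in every sample, by population and genotype. Points are samples and bars their means. In each population the Sp3KO samples (at most 5.51 FPKM) lie below both WT samples, and the Sp1_deltaDBD samples lie between or overlap.

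The Sp1_deltaDBD cells were not used in choosing Gstm5. They are compared with the same WT samples as the Sp3KO cells, so their differences from WT are not independent of that choice. In Sp1_deltaDBD cells Gstm5 had 3.61 and 1.3 FPKM in ESC, 6.40 and 6.89 in Flk1+ cells, and 3.44 and 1.57 in HE1. In HE2 it had 3.24 and 1.37 FPKM, and in Progenitor cells 7.79 and 3.12. These samples were below both WT samples in ESC, Flk1+, HE1 and HE2 cells, and overlapped with WT in Progenitor cells. Between samples with the same replicate number, Gstm5 was lower in Sp1_deltaDBD than in WT in 10 of 10 pairs, as were 4.53% of all genes tested. In the comparisons of Sp1_deltaDBD with WT, the groups of 45.2%, 55.2%, 50.0%, 45.7% and 44.5% of all genes did not overlap in the order of differentiation, so this separation is common with 2 samples a group. The log2 differences were -1.61, -1.02, -1.64, -1.63 and -0.87 (SE 0.873), and none was called (adjusted p = 0.348, 0.616, 0.266, 0.274 and 0.628). Under the replicate block the adjusted p was 0.380, 0.629, 0.308, 0.310 and 0.638 in the same order. Part of the standard error came from Sp3KO HE2 replicate 1. Without it the standard error was 0.604 and the adjusted p was 0.143 in ESC, 0.411 in Flk1+ cells, 0.0975 in HE1, 0.101 in HE2 and then 0.443 in the Progenitor cells, so no call was gained. Between the mutants, Gstm5 differed by -0.62 in ESC, -0.71 in Flk1+ cells, -1.04 in HE1, -2.40 in HE2 and then -1.76 in the Progenitor cells (Sp3KO minus Sp1_deltaDBD, with no test), and the mutants overlapped in ESC and HE2.

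Gstm2, another mu class gene (chr3:107981702-107986453, - strand), was higher in Sp3KO cells of the blast culture. In HE1 it had 8.92 and 11.0 FPKM in WT and 20.9 and 19.9 in Sp3KO samples. In HE2 the values were 12.3 and 14.5 FPKM in WT and 33.0 and 25.7 in Sp3KO samples, and in Progenitor cells 13.7 and 14.9 against 30.3 and 25.7. Each Sp3KO sample was above both WT samples in these 3 populations. The log2 differences were 1.03 in HE1 (SE 0.279, adjusted p = 0.0221, with 10.9% of all genes tested called in that comparison), 1.12 in HE2 (adjusted p = 0.0126, 13.8% called) and 0.96 in Progenitor cells (adjusted p = 0.0367, 8.65% called). The Sp3KO samples had 11.7 and 11.8 FPKM in ESC and 0.76 and 0.79 in Flk1+ cells, near the WT values, with log2 differences of 0.11 and 0.32 that were not called. In Sp1_deltaDBD cells the Gstm2 difference from WT lay between -0.57 in ESC and 0.23 in HE2, and 0 of 5 were called.

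The effect of Sp3KO on Gstm2 in a later population was not shown to differ from that in ESC. With each population fitted alone, the adjusted p of Gstm2 was 0.0863 in HE1, 0.110 in HE2 and then 0.105 in the Progenitor cells. The call was also lost in HE1 without either Sp3KO sample (0.112 for both) or without WT replicate 1 (0.162), in HE2 without replicate 1 of Sp3KO (0.105) or WT (0.111), and in Progenitor cells without any of the 4 samples (0.0882 to 0.228). In HE1 the sum of 6 blood progenitor markers was 58.8 and 79.3 FPKM in WT and 125 and 116 in Sp3KO samples, with Gfi1b and Myb called higher, and its part in the result was not tested. In HE2 and Progenitor cells the same sum overlapped between the genotypes (200 and 282 against 269 and 236, and 308 and 412 against 308 and 310).

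The genes next to Gstm5 on the chromosome had smaller differences of mixed direction in Sp3KO cells. Of the 10 annotated genes on each side, 14 were in the table. Among those given here, Gstm2 was called higher in 3 populations of Sp3KO cells and Ampd2 in 1, while Gnai3 was called lower in 3 and Gnat2 in 1. Of the values of all genes in Sp3KO cells, 5.80% were called higher and 5.67% lower, so some calls in either direction occur in many sets of genes. Whether calls were more frequent at this locus than elsewhere was not tested. Gstm7, the next gene of the cluster, had log2 differences between -0.80 and 0.01, and Gstm1 between -0.17 and 0.50, and neither was called. Gstm3, Gstm4, Gstm6 and Gstm7, the low members of the cluster, reached at most 3.67 FPKM in any sample. Gstm3 had the widest range among the neighbours, from -0.51 in Progenitor cells to 2.1 in HE1, with 0 calls. Its HE1 value sets a Sp3KO mean of 0.351 FPKM against a WT mean of 0.000445 FPKM. The size of that value therefore depends on the added 0.1 FPKM.

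**Figure D3:**
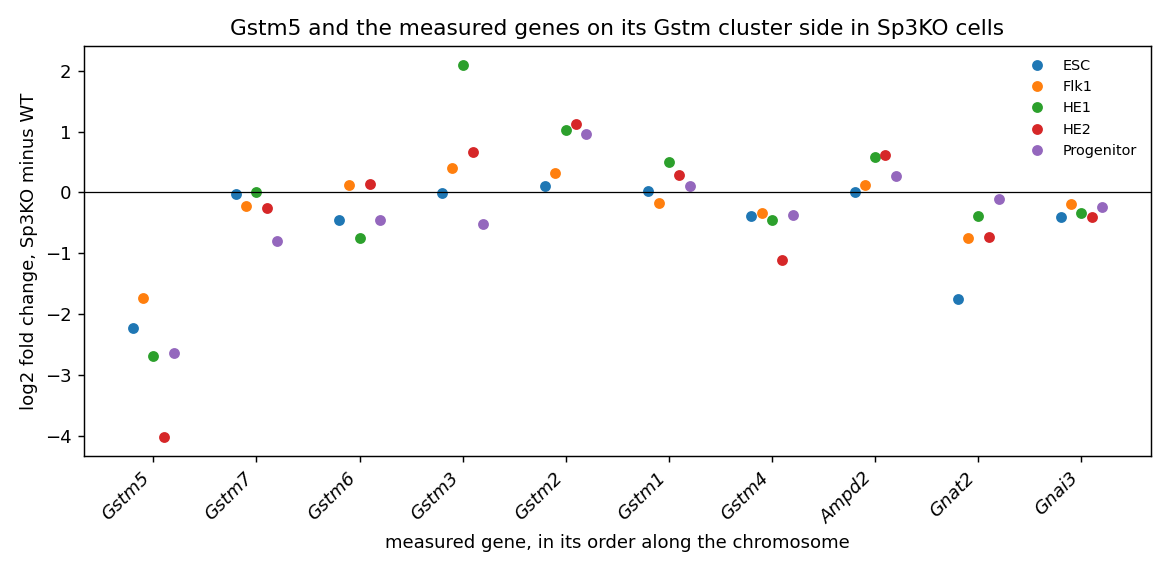
Log2 difference between Sp3KO and WT in the 5 populations for Gstm5 and the measured genes among the 10 annotated on the side of the Gstm cluster, in their order along the chromosome. Gstm5 lies between -1.73 and -4.02, and Gstm2 at 1.03, 1.12 and 0.96 in HE1, HE2 and Progenitor cells.

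Gstm1, the third mu class gene, showed no called difference in either mutant. In ESC it had 19.5 and 15 FPKM in WT, 20.6 and 13.9 in Sp1_deltaDBD and 16.9 and 17.7 in Sp3KO samples, and the 3 groups overlapped. In HE1, where the WT samples had 3.36 and 5.79 FPKM, the Sp3KO samples had 5.14 and 7.67 and the log2 difference was 0.50 (SE 0.240, adjusted p = 0.196). Without WT HE1 replicate 2 it was 0.88 (adjusted p = 0.0431). Of the 75-base windows of its transcripts, 11.7% also occurred in other genes, chiefly the pseudogene Gstm2-ps1, so its reads may be shared.

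Gsta4 (chr9:78182774-78209349, + strand) was higher in Progenitor cells of both mutants. It had 87.6 and 66.4 FPKM in WT, 142 and 104 in Sp1_deltaDBD and 140 and 108 in Sp3KO samples, with both mutant groups above WT. The log2 difference was 0.68 in Sp1_deltaDBD (SE 0.197, adjusted p = 0.0372, with 8.78% of all genes called) and 0.69 in Sp3KO cells (adjusted p = 0.0353). Both comparisons use the same WT samples. Both calls were lost with each population fitted alone (adjusted p = 0.248 and 0.239), without WT replicate 2 (0.266 and 0.257) and without replicate 1 of the mutant (0.290 and 0.309). The call in Sp1_deltaDBD cells was lost as well when blast cultures were taken as correlated (0.0502). The summed FPKM of 6 primitive erythroid markers was 13661 and 4529 in the WT Progenitor samples, 9733 and 7288 in Sp1_deltaDBD and 1543 and 3498 in Sp3KO samples, and its part in this result was not tested.

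In ESC and HE2 the Gsta4 values of both mutants overlapped with those of WT. In HE1 it had 126 and 150 FPKM in WT, 86.0 and 102 in Sp1_deltaDBD and 181 and 155 in Sp3KO samples. The log2 difference from WT was -0.55 in Sp1_deltaDBD (adjusted p = 0.0814, and 0.0202 under the replicate block) and 0.28 in Sp3KO cells (0.395). In Flk1+ cells, where Gsta4 was lowest, the Sp3KO samples had 38.7 and 34.4 FPKM against 24.6 and 24.1 in WT. Deviations of same-numbered WT and Sp3KO samples there correlated at only r = 0.00318 over 10052 genes, so these numbers were not read as pairs. The log2 difference was 0.58 (adjusted p = 0.0590, and 0.0131 with the block). This value also passed without any of 4 single samples of HE2 or Progenitor cells (0.0456 to 0.0461). In Flk1+ cells the ESC marker sum was 41.3 and 31.9 FPKM in WT and 94.9 and 97.6 in Sp3KO samples. Of these markers Sox2 was called higher in Sp3KO Flk1+ cells. The part of ESC-like cells in the Gsta4 difference was not tested.

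Gstp1, a widely and strongly expressed GST, had 41.5 to 81.4 FPKM over the WT samples, 34.5 to 83.1 in Sp1_deltaDBD and 32.9 to 72.4 in Sp3KO samples. The largest difference was in Flk1+ cells, where WT samples had 53.2 and 51.9 FPKM, Sp1_deltaDBD samples 44.5 and 36.1 and Sp3KO samples 32.9 and 41.0. Both mutant groups were below WT there, but neither difference was called (log2 differences -0.39 and -0.52, adjusted p = 0.406 and 0.159). When GC content and the length of genes were corrected for, the Sp3KO difference was -0.74 (adjusted p = 0.00535). Of the 75-base windows of the Gstp1 transcripts, 29.2% also occur in its near copy Gstp2, so how the reads were divided between these genes is uncertain.

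Gstt1, which acts on small halogenated compounds, was low throughout, with at most 4.96 FPKM, in Sp3KO ESC. In HE1 it had 2.76 and 0.0920 FPKM in WT, 0.000941 and 0.00251 in Sp1_deltaDBD and 0.00151 and 0.00960 in Sp3KO samples. The 4 mutant values were the lowest of their samples, each shared by 942 to 1346 genes. The WT samples themselves differed widely, and the adjusted p was 0.0763 and 0.0773 against WT. Both differences passed when a Sp3KO Progenitor sample was left out, which changes only the estimate of the spread. The WT value of 2.76 FPKM came from replicate 1, the sample with the high muscle sum, and the part of such cells was not tested. Without WT HE1 replicate 2, only that sample stood for WT, so no p is given. In HE2 the values were 0.900 and 0.122 FPKM in WT, 0.179 and 0.00217 in Sp1_deltaDBD and 0.00647 and 0.0143 in Sp3KO samples, and no difference was called. No fold change is given for Gstt1 in HE1 and HE2, where mutant values were at the floor of a sample.

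Gsto1 (chr19:47854970-47864790, + strand), an omega class enzyme with thioltransferase and dehydroascorbate reductase activity, was lower in several Sp1_deltaDBD populations. In HE2 it had 50.7 and 47.7 FPKM in WT, 21.1 and 12.3 in Sp1_deltaDBD and 35.6 and 36.5 in Sp3KO samples. In Progenitor cells the values were 34.7 and 43.1 FPKM in WT, 22.2 and 18.8 in Sp1_deltaDBD and 35.2 and 32.6 in Sp3KO samples. The Sp1_deltaDBD samples were below both WT samples in both populations. The log2 difference was -1.60 in HE2 (SE 0.245, adjusted p = 0.000327, with 9.67% of all genes called) and -0.92 in Progenitor cells (adjusted p = 0.0233). In HE1 the Sp1_deltaDBD samples had 47.4 and 29.6 FPKM and overlapped with 41.2 and 47.3 in WT (log2 difference -0.24, adjusted p = 0.626). In Flk1+ cells they had 13.9 and 13.3 against 23.9 and 22.6 (log2 difference -0.77, adjusted p = 0.0744, and 0.0470 under the replicate block). This value passed as well without either Sp1_deltaDBD HE2 sample (0.0414 and 0.0415). With each population fitted alone, the adjusted p was 0.0333 in Flk1+, 0.0574 in HE2 and then 0.0851 in the Progenitor cells. The effect in HE2 differed from that in ESC by -1.19 (adjusted p = 0.0767, and 0.0491 under the block). The Progenitor call was also lost without either Sp1_deltaDBD sample (0.0566 and 0.111) or without WT replicate 2 (0.152). In Sp3KO cells 0 of 5 Gsto1 differences were called, and the log2 values lay between -0.45 and 0.14.

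Gstk1 (chr6:42245935-42250447, + strand), the kappa class GST of mitochondria and peroxisomes, showed the largest called differences of the 8 genes, in Sp1_deltaDBD cells. In HE1 it had 11.9 and 13.1 FPKM in WT, 0.436 and 0.438 in Sp1_deltaDBD and 14.9 and 17.2 in Sp3KO samples. In HE2 the values were 14.7 and 13.0 FPKM in WT, 0.855 and 0.377 in Sp1_deltaDBD and 7.33 and 13.8 in Sp3KO samples. In Progenitor cells they were 4.63 and 6.19, 1.74 and 0.392, and 2.04 and 4.27 FPKM in the same order of genotypes. The Sp1_deltaDBD samples were below both WT and both Sp3KO samples in these 3 populations. The log2 difference from WT was -4.55 in HE1 (SE 0.479, adjusted p = 4.84e-06, with 10% of all genes called), -4.37 in HE2 (adjusted p = 8.59e-06) and -2.52 in Progenitor cells (adjusted p = 0.00251).

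In ESC, by contrast, Gstk1 had 3.89 and 2.32 FPKM in WT and 3.15 and 1.88 in Sp1_deltaDBD samples, which overlapped (log2 difference -0.29, adjusted p = 0.836). In Flk1+ cells the values were 3.83 and 4.17 against 1.93 and 1.73 (log2 difference -1.09, adjusted p = 0.222, and 0.0476 with each population fitted alone). The effect of Sp1_deltaDBD differed from that in ESC by -4.26 in HE1 (SE 0.677, adjusted p = 0.00178, with 3.99% of all genes called) and by -4.07 in HE2 (adjusted p = 0.00286, 2.62% called). These were 2 of the 60 differences of effect tested for the 8 genes. In the other comparisons of effects, 1.74% (Flk1+) and 3.15% (Progenitor) of all genes were called for Sp1_deltaDBD, and 1.48%, 2.16%, 0.544% and 1.34% for Sp3KO from Flk1+ to Progenitor cells. In WT cells Gstk1 rose between Flk1+ cells and HE1, whereas its level in Sp1_deltaDBD cells was lower in HE1 (0.436 and 0.438 FPKM) than in Flk1+ cells.

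The HE1 and HE2 calls of Gstk1 were kept under each alternative and without each of the 30 samples in turn, while the Progenitor call was lost with each population fitted alone (adjusted p = 0.171). The 2 WT HE1 samples, which differed in their muscle and fibroblast marker sums, had 11.9 and 13.1 FPKM of Gstk1. The part of such cells in the Gstk1 difference was not tested. In HE1 the erythroid marker sum was 105 and 44.2 FPKM in WT and 22.2 and 12.1 in Sp1_deltaDBD samples, with Hba-x and Hbb-y called lower, and its part in the result was not tested. Sp3 itself was higher in Sp1_deltaDBD HE1 cells than in WT (log2 difference 0.71, adjusted p = 0.0210). In Sp3KO cells Gstk1 was not called in any population (log2 differences between -0.84 and 0.35).

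**Figure D4:**
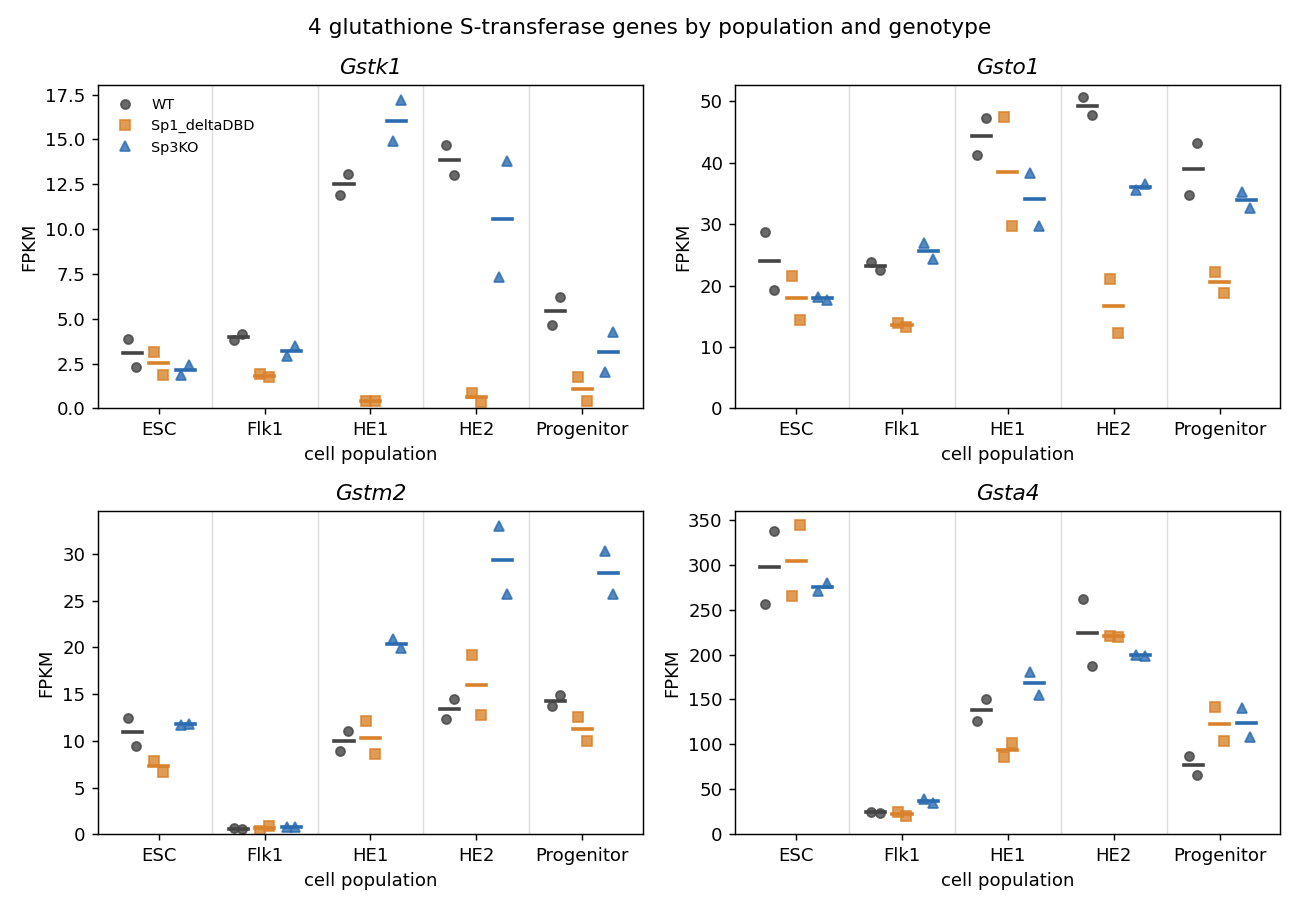
FPKM of Gstk1, Gsto1, Gstm2 and Gsta4 in every sample, by population and genotype. Points are samples and bars their means. Gstk1 is at most 0.855 FPKM in the Sp1_deltaDBD samples of HE1 and HE2, and Gstm2 is above both WT samples in Sp3KO HE1, HE2 and Progenitor cells.

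Counted over the 8 genes, 6 of 40 differences between Sp1_deltaDBD and WT were called, 5 lower and 1 higher. There were 0 in ESC (6.06% of all genes called) and 0 in Flk1+ cells (5.54%), 1 was in HE1, 2 were in HE2 and then 3 in the Progenitor cells. Counted in the lower direction alone, 3.26%, 2.62%, 4.35%, 4.97% and 5.04% of all genes were called in the order of differentiation, and 3.75% were called higher in Progenitor cells. Leaving out Gstm5, 4 of 35 differences between Sp3KO and WT were called, each of them higher, with 0 in ESC (11.3% of all genes called) and 0 in Flk1+ cells (12.6%). Higher calls made up 5.40%, 6.69%, 6.02%, 6.97% and 3.88% of all genes in the order of differentiation. The median log2 difference of the 8 genes in Sp1_deltaDBD cells was, in the order of differentiation, -0.28, -0.58, -0.39, -0.80 and -0.43, and the median of all genes tested lay between -0.00 and 0.05. Without Gstm5, the median in Sp3KO cells lay between -0.16 and 0.28, against -0.02 to 0.05 for all genes. By a fold rule with no test, a ratio of mean FPKM + 0.1 above 2 in either direction where the higher group averaged over 3 FPKM, 16 values passed. In Sp1_deltaDBD cells these were 1 in ESC (2.87% of all genes in the table), 2 in Flk1+ cells (3.08%), 2 in HE1 (4.26%), 3 in HE2 (4.0%) and 1 in the Progenitor cells (3.89%), all lower and all of Gstm5, Gsto1 or Gstk1. In Sp3KO cells they were Gstm5 in each population, where it chose the genes, and Gstm2 in HE1 and HE2 (3.70%, 4.43%, 4.86%, 4.41% and 4.22% of all genes in the order of differentiation). In Sp1_deltaDBD cells Gstm5 was the only gene passing in ESC and was among those passing in Flk1+, HE1 and HE2 cells. Its differences there use the WT samples that also chose it, and they enter the Sp1_deltaDBD medians of the 8 genes.

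**Figure D5:**
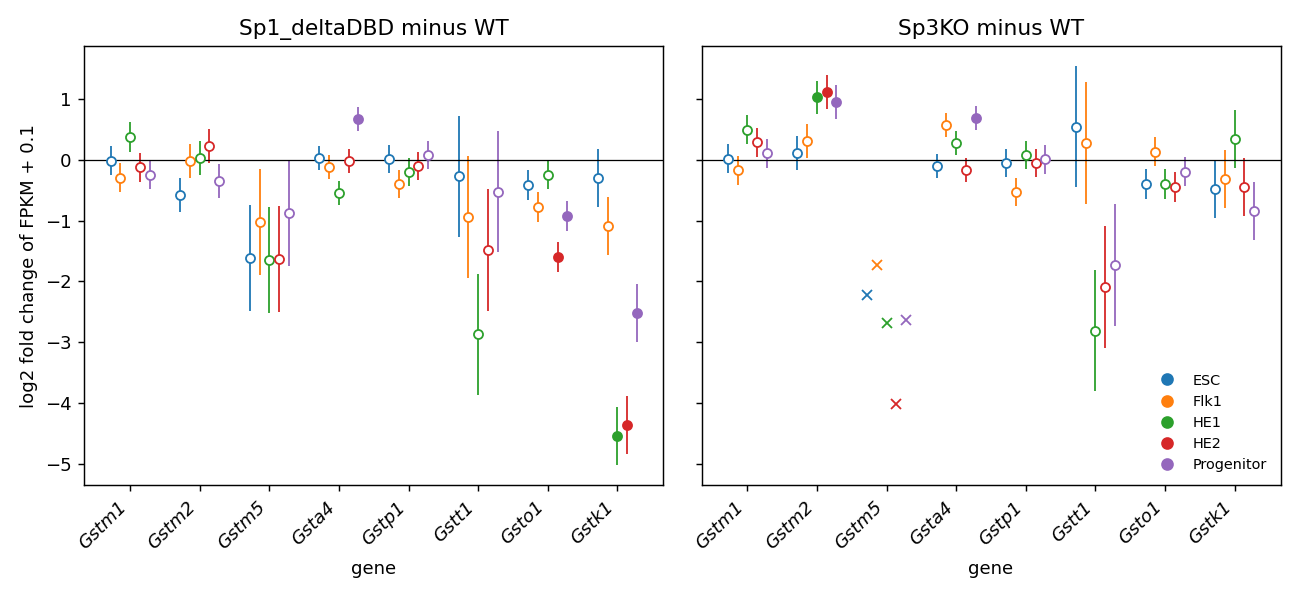
Log2 differences from WT of the 8 GST genes in Sp1_deltaDBD (left) and Sp3KO cells (right), coloured by population, with standard errors. Filled points were called by limma, open points were not, and crosses are the Gstm5 values in Sp3KO cells, which were not tested; the lowest called value is Gstk1 in Sp1_deltaDBD HE1 at -4.55.

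A direct comparison of the mutants, added after the values had been seen, called 10 of 35 differences for the 7 genes other than Gstm5, each of them higher in Sp3KO than in Sp1_deltaDBD cells, the direction of 4.30%, 3.61%, 6.83%, 7.41% and 5.51% of all genes in the order of differentiation. In ESC 0 were called (9.67% of all genes). In Flk1+ cells (7.39% called) these were Gsta4 (0.69, adjusted p = 0.0387) and Gsto1 (0.91, adjusted p = 0.0290). In HE1 (13.6% called) they were Gstk1 (4.90, adjusted p = 2.02e-06), Gstm2 (0.99, adjusted p = 0.0229) and Gsta4 (0.84, adjusted p = 0.00795). In HE2 (15.9% called) they were Gstk1 (3.91, adjusted p = 2.87e-05), Gsto1 (1.16, adjusted p = 0.00365) and Gstm2 (0.89, adjusted p = 0.0355). In Progenitor cells (11.6% called) they were Gstm2 (1.31, adjusted p = 0.00460) and Gstk1 (1.68, adjusted p = 0.0285). The Gstk1 calls in HE1 and HE2 held without each sample in turn. The other 8 calls were each lost without at least 1 of the samples compared. In Flk1+ cells this was any sample but Sp1_deltaDBD replicate 1 for Gsta4 (adjusted p of 0.106 to 0.356) and any sample for Gsto1 (0.0766 to 0.203). In HE1 it was any sample but Sp1_deltaDBD replicate 1 for Gstm2 (0.103 to 0.228) and replicate 1 of either mutant for Gsta4 (0.0600 and 0.0813). In HE2 it was any sample but Sp1_deltaDBD replicate 1 for Gstm2 (0.0748 to 0.304) and Sp1_deltaDBD replicate 2 for Gsto1 (0.0912). In Progenitor cells it was Sp3KO replicate 1 for Gstm2 (0.0528) and replicate 2 of either mutant for Gstk1 (0.272 and 0.336), whose call was lost under the replicate block too (0.0523).

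Other genes of the GST family were called only lower in the mutants. Of 19 further family genes, 15 were measured, and in the 10 comparisons with WT 0 were called higher in any and 1 to 3 were called lower in each. Over the 5 populations 7 of 75 values (9.33%) were called lower in each mutant, against 4.05% of the values of all genes in Sp1_deltaDBD and 5.67% in Sp3KO cells. These calls were of Gstp3, Gstz1, Gstt3 and Mgst1 in Sp1_deltaDBD and of Mgst1, Gstz1, Mgst3 and Gstt3 in Sp3KO cells. Of all genes, 5.91%, 5.94%, 4.87%, 6.84% and 4.77% were called lower in Sp3KO cells and 2.80%, 2.92%, 5.69%, 4.70% and 3.75% higher in Sp1_deltaDBD cells in the order of differentiation. The shares higher over the 5 populations were 3.97% in Sp1_deltaDBD and 5.80% in Sp3KO cells. Mgst1, a membrane-bound GST, had 0.409 and 0.00816 FPKM in Sp1_deltaDBD Progenitor samples and 3.61 and 5.15 in WT (adjusted p = 0.00121), the second value being the lowest of its sample. In Sp3KO HE2 it had 1.77 and 0.567 FPKM against 5.32 and 6.01 (log2 difference -2.36, adjusted p = 0.0367). Both Mgst1 mutant groups were below WT. The theta class gene Gstt3 had 0.32 and 0.364 FPKM in Sp3KO HE2 against 1.02 and 1.59 in WT (-1.64, adjusted p = 0.0194), and Gstp3 was listed at 0 and 0.618 FPKM in Sp1_deltaDBD ESC against 1.80 and 2.81 (adjusted p = 0.0273). The Gstt3 call was lost without any of the 4 samples compared (0.0548 to 0.109), the Gstp3 call without any but Sp1_deltaDBD replicate 2 (0.0668 to 0.351) and the Sp3KO Mgst1 call without any but Sp3KO replicate 1 (0.109 to 0.30).

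Glutathione itself is made and recycled by enzymes of another list, of which 13 of 14 genes were measured. Of these, 0 were called lower in either mutant, and 0 to 2 were called higher in a comparison. These were 3 of 65 values (4.62%) in Sp1_deltaDBD and 4 of 65 (6.15%) in Sp3KO cells, near the 3.97% and 5.80% of all genes. Ggct, which degrades gamma-glutamyl peptides, had 7.25 and 4.26 FPKM in Sp1_deltaDBD Progenitor samples against 1.98 and 2.85 in WT (log2 difference 1.19, adjusted p = 0.00407), and was also called higher in HE1 and HE2. Gsr, glutathione reductase, had 74.0 and 74.4 FPKM in Sp3KO ESC against 45.6 and 53.2 (0.59, adjusted p = 0.0113). Oplah, an oxoprolinase, had 2.02 and 1.91 FPKM there against 1.23 and 0.549 (1.15, adjusted p = 0.0497). Gclc and Gclm, the subunits of the enzyme that sets the rate of glutathione synthesis, were not called in either mutant. The Ggct call was lost without replicate 1 of either group (0.0823 and 0.0690) and the Gsr call without either Sp3KO sample or WT replicate 1 (0.0750 to 0.124). The Oplah call, close to the threshold, was lost without any compared sample but WT replicate 1 (0.175 to 0.417) as well as with no filter on low values (0.0502), correlated blast cultures (0.0701), each population alone (0.170) and the correction for GC content and length (log2 difference 0.78, 0.188).

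Of 10 glutathione peroxidases and glutaredoxins, all measured, at most 2 were called in a comparison. In Sp1_deltaDBD cells 5 of 50 values were called lower (10%, against 4.05% of all genes) and 0 higher, and in Sp3KO cells 1 was called lower (2.0%, against 5.67%) and 2 higher (4.0%, against 5.80%). Gpx3, the secreted peroxidase, was called lower in Sp1_deltaDBD HE1, HE2 and Progenitor cells, where Gstk1 was also called lower. In HE2 it had 9.23 and 3.17 FPKM against 36.6 and 18.8 in WT (log2 difference -2.25, adjusted p = 0.00348). Gpx2 had 0.198 and 0.412 FPKM in Sp1_deltaDBD ESC against 3.58 and 3.58 in WT (-3.23, adjusted p = 3.29e-05). In Sp3KO HE2 the glutaredoxin Glrx had 2.94 and 2.60 FPKM against 7.37 and 5.89 (-1.22, adjusted p = 0.0111), and mitochondrial Glrx5 had 48.7 and 54.8 against 31.3 and 32.9 (0.69, adjusted p = 0.0285). The Glrx call was lost without Sp3KO replicate 2 (0.0907) or WT replicate 1 (0.111), the Glrx5 call without any of the 4 samples (0.0650 to 0.175) and the Gpx3 call without Sp1_deltaDBD replicate 2 (0.0933) or WT replicate 1 (0.0641).

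The regulators of the Nrf2 pathway, 10 of 10 measured, included Keap1, the adaptor through which Nrf2 is degraded. Over the 5 populations 5 of 50 values (10%) were called lower in each mutant. Of all genes this was 4.05% in Sp1_deltaDBD and 5.67% in Sp3KO cells. Called higher were 0 in Sp1_deltaDBD and 4 in Sp3KO cells (8.0%, against 5.80% of all genes). Keap1 had 8.25 and 8.70 FPKM in Sp3KO ESC against 3.89 and 4.80 in WT (log2 difference 0.95, adjusted p = 0.000445), and was called higher in Sp3KO Flk1+, HE1 and HE2 cells as well. Nfe2l2, which encodes Nrf2, was called lower in Sp3KO Flk1+ cells only among the 10 comparisons. Cul3, of the same list, was called lower in Sp3KO HE2 cells only (log2 difference -0.58, limma adjusted p = 0.0307). Sqstm1, an autophagy receptor that binds Keap1, had 268 and 338 FPKM in WT HE1, 135 and 157 in Sp1_deltaDBD (-1.04, adjusted p = 0.00370) and 162 and 146 in Sp3KO samples (-0.97, adjusted p = 0.00678). It was called lower in both mutants in HE1, HE2 and Progenitor cells, comparisons that share the WT samples. Mafg, a small partner of Nrf2, had 15.7 and 20.5 FPKM in Sp1_deltaDBD Progenitor samples against 26.8 and 30.9 (-0.67, adjusted p = 0.0111). The Sqstm1 call in Sp3KO HE1 was lost without Sp3KO replicate 2 (0.0790) or WT replicate 2 (0.0629), and the Mafg call without Sp1_deltaDBD replicate 1 (0.137) or WT replicate 2 (0.0888).

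Of 19 Nrf2 targets outside glutathione metabolism, all measured, 1 to 6 were called lower in a Sp1_deltaDBD comparison and 2 to 4 in a Sp3KO comparison, and at most 1 was called higher in any. Over the 5 populations 18.9% of 95 values were called lower in Sp1_deltaDBD (4.05% of all genes) and 13.7% in Sp3KO cells (5.67%). As in the other lists, each gene is counted in 5 populations and the mutants share the WT samples, so these values are not independent. The lists were also chosen with earlier results of these data known. Ephx1, epoxide hydrolase, had 1.35 and 2.16 FPKM in WT HE2 and 0.0750 and 0.00217 in Sp1_deltaDBD samples (adjusted p = 0.000215). Cbr3, a carbonyl reductase, had 0.907 and 0.625 FPKM in WT HE1 and 0.00151 and 0.00960 in Sp3KO samples (adjusted p = 0.000276), and 0.779 and 0.303 in WT HE2 against 0.000930 and 0.00217 in Sp1_deltaDBD samples (adjusted p = 0.000746). No fold change is given for Ephx1 and Cbr3, whose mutant values include those at the floor of a sample. Of the 6 of 12 measured genes for export and mercapturate formation, 0 to 3 were called lower in each comparison and 0 higher. Of 30 values this was 26.7% in Sp1_deltaDBD and 20% in Sp3KO cells, but the genes are few, and Abcc1 and Abcc4 belong to the Nrf2 targets as well. The transporter Abcc4 had 2.19 and 1.31 FPKM in WT Progenitor samples, 0.426 and 0.246 in Sp1_deltaDBD (log2 difference -2.08, adjusted p = 0.00117) and 0.415 and 0.302 in Sp3KO samples (-1.98, adjusted p = 0.00234). Both calls were lost with each population fitted alone (0.10 and 0.12). The peptidase Anpep had 0.729 and 0.986 FPKM in Sp1_deltaDBD HE1 against 3.02 and 3.37 (-1.79, adjusted p = 0.000964), and 0.381 and 0.684 in Sp3KO Progenitor samples against 1.66 and 2.11 (-1.68, adjusted p = 0.00263, and 0.0530 without Sp3KO replicate 1). With each population fitted alone these were 0.0578 and 0.186. Of the 22 calls the naming rule gave for the 6 lists, 21 were lost when each population was fitted alone (adjusted p of 0.0549 to 0.212), all but Ephx1.

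The genes whose log2 values over the 30 samples were most like those of Gstm5, among genes reaching at least 5 FPKM, were Txndc17 (Pearson r = 0.85), Gm15772 (0.79), Nr3c1 (0.76), Hspb11 (0.75) and Pi4k2b (0.75). The Sp3KO values of Gstm5 that chose the 8 genes enter this correlation, so lower Sp3KO values of these genes are not a separate result. Txndc17 had 55.4 and 56.6 FPKM in WT ESC and 42.0 and 42.9 in Sp3KO ESC, and in HE1 72.9 and 61.2 against 35.2 and 39.8. Among the 8 genes, Gstm2 and Gsta4 were most alike (r = 0.80), followed by Gstm1 and Gsta4 (0.67) and by Gsto1 and Gstk1 (0.59), while Gstm2 and Gstm5 had r = -0.49. These values describe 30 samples that share populations, genotypes and libraries, and have no test.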

How the data were processed

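RNA was measured by sequencing of ribosome-depleted total RNA (TruSeq Stranded Total RNA kit) in 30 samples, 2 for each of 15 groups named in the labels. The authors trimmed the reads, aligned them to mm10 with HISAT2 2.1.0, estimated FPKM with StringTie 1.3.3, quantile normalised the table after a filter at 1 FPKM, and the deposited FPKM values were used as they stand. The annotation and the use of strand are not given in the sources used here, and quantile normalisation fixes the distribution of each sample (largest difference at any rank 0.192 FPKM), so depth is unknown and no counting interval is given. Genes listed at the lowest value of a sample, between 0 and 0.0234 FPKM, share that value.

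Values were taken as log2(FPKM + 0.1), and fold changes on this scale understate the change of low genes. Of 14685 genes, 14525 above 1 FPKM in at least 1 sample were tested with limma 3.58.1 in R 4.3.3, as 1 model of the 15 group means with an intensity trend, two-sided, with Benjamini-Hochberg adjustment over all genes within a comparison and a threshold of 0.05. The comparisons were each mutant with WT, neighbouring WT populations, each mutant effect in a later population with that in ESC and, added after the values had been seen, the mutants with each other. Comparisons with WT share the WT samples. An exact permutation test of 2 against 2 samples cannot go below p = 0.333 and was not used. The fit was tested on simulated data. Tables and figures were made with Python 3.11.15, numpy 2.4.6, pandas 2.3.3 and matplotlib 3.10.9.

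Alternatives were a pseudocount of 1, no filter, the replicate number as a block, each population fitted alone, blast culture populations of a replicate taken as correlated, corrections for gene length and GC content with and without the block, and each of the 30 samples left out. Over 14405 genes, log2 differences from WT correlated with GC content (Spearman 0.112 to 0.463 in Sp3KO and -0.286 to 0.206 in Sp1_deltaDBD comparisons). The main fit is not corrected for this. What a replicate number marks is not given in the labels. Deviations of same-numbered WT and Sp1_deltaDBD samples from their group means correlated in 5 of 5 populations (r = 0.255 to 0.481 over 10052 genes), and those of WT and Sp3KO samples exceeded r = 0.1 in 2 of 5 (0.00318 to 0.194), so the WT and Sp1_deltaDBD numbers were read as pairs, and the value under the block is given where it changes a call. The members and gene lists were chosen with earlier results of these data known. Named genes were the 8 members, Sp1 and Sp3, per pathway list the 2 called genes with the largest fold change in each mutant, the 5 genes most correlated with Gstm5 among those reaching 5 FPKM, and the 10 annotated genes on each side of Gstm5, of which 1 is not reported here. Nfe2l2, Cul3, Gclc, Gclm, Mgst3 and Gstz1 were named after their values were seen. Positions are from GENCODE M21 (GRCm38), to which 14372 symbols matched directly and 192 by an older symbol, while 121 did not match. Shared windows are 75-base stretches of annotated transcripts.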

Additional observations from a re-analysis of the deposited data

Results flagged for a closer look

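The effect of Sp1_deltaDBD on Gstk1 differed between populations by the test of the difference itself. Relative to the effect in ESC, the log2 difference was lower by -4.26 in HE1 and by -4.07 in HE2 (limma adjusted p = 0.00178 and 0.00286, SE 0.677). In Progenitor cells the same difference was -2.23 (adjusted p = 0.0825), and it passed without Sp1_deltaDBD Progenitor replicate 1 (-3.18, adjusted p = 0.0110). With 2 samples in each group, no sample could be tested for standing apart from its group.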

How the results depend on the processing

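Of 22 calls for the 8 genes against WT, between WT populations or between effects, 12 were kept under each alternative and each left-out sample, but of the 10 against WT only 2 were, Gstk1 in Sp1_deltaDBD HE1 and HE2. None of the 22 changed direction. With each population fitted alone, the 4 calls in Sp3KO against WT were all lost. In these fits 1 other was gained, Gsta4 in Flk1+ cells (limma adjusted p = 0.0467). Calls between the mutants fell from 10 to 5 in these fits, each of which has fewer samples. Without WT Progenitor replicate 2 the Sp3KO calls numbered 2. The differences of effect from ESC called numbered 4, not 2, with the GC and length correction and the replicate block together. Leaving out 1 sample gave 2 to 6 calls in Sp3KO, 4 to 7 in Sp1_deltaDBD, 8 to 11 between WT populations, 2 to 3 for effects and 8 to 11 between the mutants. With the replicate block the calls were 5 in Sp3KO, 8 in Sp1_deltaDBD, 10 between WT populations, 3 for effects and 10 between the mutants. The fold rule passed 16 values, 16 between mean log2 values and 20 with no minimum level. Over the alternatives, the pathway counts of the 5 populations in Sp1_deltaDBD and Sp3KO lay between 4 and 9 and 2 and 8 for other GST genes (reported 7 and 7), 0 and 7 and 0 and 6 for synthesis (3 and 4), 2 and 11 and 0 and 10 for peroxidases (5 and 3), 1 and 6 and 2 and 10 for Nrf2 regulators (5 and 9), 4 and 21 and 6 and 20 for Nrf2 targets (19 and 15), and 2 and 10 and 0 and 8 for export (8 and 6). The causes were not tested. Depth is unknown, so how far it limits the low genes, such as Gstt1, cannot be given.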
